A study of Mus musculus with 4 samples.

Results

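The genes described here encode the MCM replication helicase, Mcm2, Mcm3, Mcm4, Mcm5, Mcm6 and Mcm7, and its loading factor Cdc6. They were taken as the spots whose only gene symbol in the probe annotation is one of these names, and all 7 genes were found, among 11138 genes with a spot. Each was represented by 1 oligonucleotide printed as 2 adjacent spots, 14 spots of 24344 in all. The genes were picked with their ratios at both times in view, so their values are given as a description and were not tested.

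The cells were SVEC cells, an established mouse endothelial line, kept in culture with or without lipopolysaccharide (LPS), a component of the outer membrane of Gram-negative bacteria. The groups were LPS for 4 h and LPS for 24 h, each set against control RNA on the same array, and the title of the series poses the response of SVEC cells to LPS in culture as its subject. Labels of 3 arrays give LPS at 50 ng/ml; that of the reversed 4 h array gives no dose. Each time had 2 arrays of amplified RNA, the first with LPS in the dye Cy5 and the second, called a dye reversal, with LPS in Cy3. The labels name no separate cultures and do not say whether the times shared control RNA. The 2 arrays of a time were therefore treated as repeat measurements of 1 pair of RNAs, with the dyes swapped. The SD given below is the spread between those 2 arrays, may be technical only, and holds no difference between cultures.

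Before DNA is copied, the origin recognition complex and Cdc6, together with Cdt1, load the ring of Mcm2 to Mcm7 onto origins during G1 phase; this is called licensing. In S phase the ring is activated by the kinase Cdc7 with Dbf4, joins Cdc45 and the GINS proteins, and unwinds the DNA ahead of the polymerases. Transcription of the MCM genes and Cdc6 is a textbook target of the E2F factors, and growing cells carry much more of these transcripts than resting ones. Endothelial cells lining vessels are mostly at rest in the body, while a cultured line such as SVEC divides. SVEC lines are known as endothelial cells transformed with SV40, whose large T antigen binds the retinoblastoma protein, a brake on E2F.

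Because these genes share E2F as a known regulator, their promoter windows were searched for 4 E2F letter strings on both strands: TTTGGCGC, TTTCGCGC, TTTCCCGC and TTTGCCGC. The windows, from RefSeq on GRCm38.p6, run from 250 bases before to 50 bases after an annotated start. Windows were found for 6 of the 7 genes, and Mcm4 had none. The stretches of Mcm2, Mcm5 and Mcm6, which had high ratios at 4 h, are shown up to the first annotated base of the gene. Short sites are shown for Mcm3 and Mcm7, whose ratios were not high, and for Cdc6, whose ratio was low. Capitals mark an E2F string.
Mcm2, chr6:88898781-88899030, minus strand: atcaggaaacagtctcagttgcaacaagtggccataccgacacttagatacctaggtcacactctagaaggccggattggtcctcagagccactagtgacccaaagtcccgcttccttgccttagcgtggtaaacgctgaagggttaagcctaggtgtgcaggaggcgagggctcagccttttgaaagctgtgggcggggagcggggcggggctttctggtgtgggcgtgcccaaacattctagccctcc
Mcm5, chr8:75109259-75109467, plus strand: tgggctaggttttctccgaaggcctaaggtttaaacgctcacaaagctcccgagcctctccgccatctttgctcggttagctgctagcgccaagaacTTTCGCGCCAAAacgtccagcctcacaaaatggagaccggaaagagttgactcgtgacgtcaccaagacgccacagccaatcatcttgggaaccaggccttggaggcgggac
Mcm6, chr1:128359706-128359955, minus strand: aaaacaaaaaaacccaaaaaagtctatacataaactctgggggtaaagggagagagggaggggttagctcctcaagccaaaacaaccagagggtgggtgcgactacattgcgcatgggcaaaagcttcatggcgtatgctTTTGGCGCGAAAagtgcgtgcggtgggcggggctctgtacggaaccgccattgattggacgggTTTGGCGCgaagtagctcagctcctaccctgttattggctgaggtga
Mcm3, chr1:20820263-20820292, minus strand: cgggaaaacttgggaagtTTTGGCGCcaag
Mcm7, chr5:138171849-138171878, minus strand: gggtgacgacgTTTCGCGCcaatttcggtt
Cdc6, chr11:98908002-98908031, plus strand: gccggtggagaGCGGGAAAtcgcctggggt

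An E2F string was present in a window of 5 of these 6 genes, and in 744 of all 32851 promoter windows (2.26%). Mcm6 had 3 matches, 2 of them overlapping on opposite strands, and Mcm5 had 2 that also overlap. Mcm3 and Mcm7 had 2 each, and 1 lay in the Cdc6 window. Mcm2 had none of the 4 strings in its window, although its 4 h ratio was the largest of the 7. The Cdc6 window belongs to a start 442 bases inside the annotated gene and does not reach the gene's outermost start. The 2 windows of Mcm7 belong to starts 228 and 845 bases inside its gene, and the first of them covers the outermost start with 22 bases before it. The CCAAT box, searched as CCAAT on both strands, was found in 5 of the 6 genes (all but Cdc6) and in 37.4% of all windows. Of the genes with high 4 h ratios, Mcm5 and Mcm6 had an E2F string, Mcm2 had none in its window and Mcm4 had no window. Mcm3 and Mcm7 had a string and were not high, and Cdc6 had one and was low. The genes were picked on these ratios, and a link between string and ratio was not tested. A match describes letters only; no binding was measured here.

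Values are log2 ratios of LPS over control after each array was centred on its median spot and the reversed arrays were turned in sign. That direction is only likely: it was inferred from labels that put LPS in channel 2 and, without reversal, in Cy5, and under the other convention each sign here would be turned. Before turning, r over all spots was -0.23 between the 4 h arrays and -0.042 between the 24 h arrays. After turning, the genes' ratios correlated at 0.48 between the 4 h arrays and 0.10 between the 24 h arrays; genes are not independent replicates. The values came without intensities, so dim spots could not be told from bright ones, and levels of different genes cannot be compared. The number of arrays limits the precision.

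After 4 h with LPS, transcripts of 4 of the 6 helicase subunits, Mcm2, Mcm4, Mcm5 and Mcm6, were between 4.48-fold and 7.19-fold higher than in control RNA, while Mcm3 and Mcm7 were near a ratio of 1 on average. Cdc6 went the other way and was 2.57-fold lower. These ratios are relative to the array's median spot. With each array centred on abundant transcripts instead, the 4 means lay between 0.29 and 0.98 on the log2 scale and none of the 6 subunits was 2-fold higher, while Mcm3 and Mcm7 were lower. After 24 h none of the 7 genes was past the 2-fold rule, and their means lay between -0.03 and 0.31. The rule asks for a mean log2 ratio of 1 or more in size, and for at least 1.5-fold in that direction on each of the 2 arrays. In all, 8.74% of genes were higher by this rule at 4 h and 5.77% lower, and 1.68% were higher and 0.799% lower at 24 h. These shares depend on the centring, and at 24 h the balance of higher and lower genes differed between the 2 arrays. Counts from 1 array alone come from a looser rule, as the demand that both arrays agree is gone. The 973 higher and 643 lower genes at 4 h became 110 and 9075 with centring on abundant transcripts. The 187 and 89 at 24 h became 771 and 310 without the unreversed array, and 502 and 818 without the reversed one. The helicase genes and Cdc6 were chosen on this contrast, so nothing is read from their counts against these shares.

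**Figure D1:**
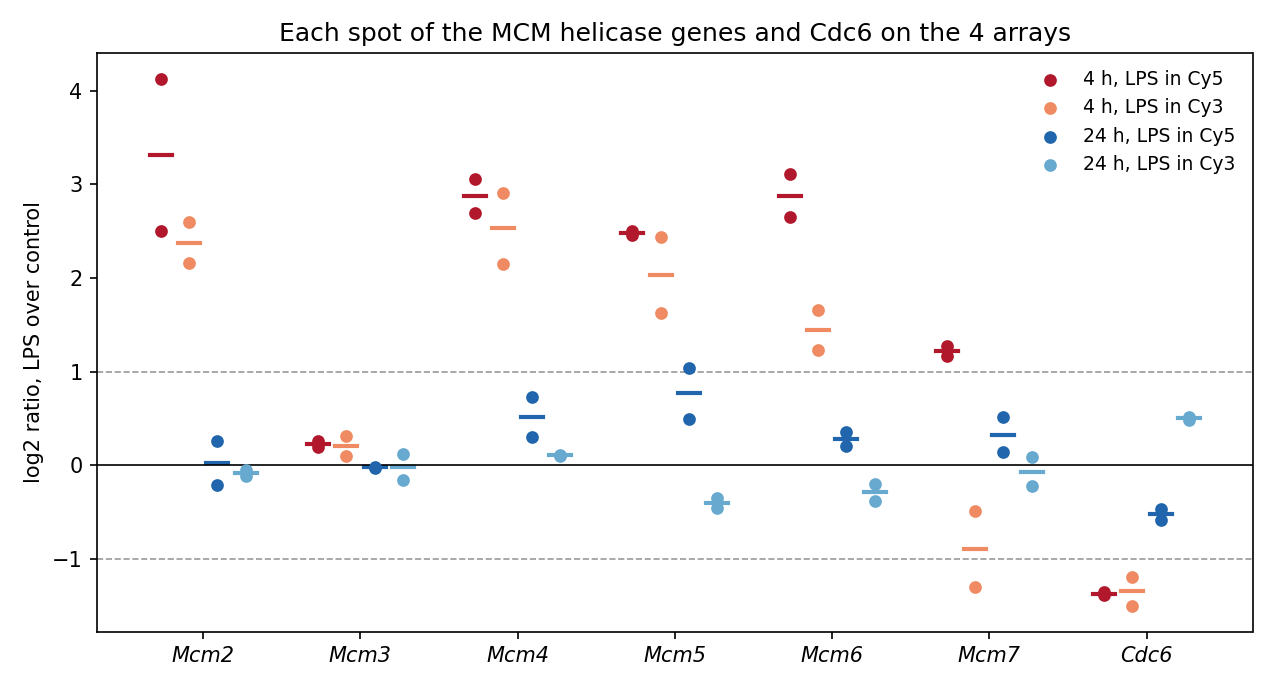
Log2 ratio of LPS over control (vertical axis) for both spots of each gene on the 4 arrays; points are spots, short bars the mean of 2 spots, and dashed lines mark 2-fold. Mcm2, Mcm4, Mcm5 and Mcm6 lie above the upper dashed line on both 4 h arrays (red and orange), Cdc6 lies below the lower one, and Mcm7 has its 4 h arrays on opposite sides of 0.

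Mcm2, a subunit of the ring that the activating kinase phosphorylates, had spots at 2.50 and 4.12 on the 4 h array with LPS in Cy5 and at 2.16 and 2.59 on the reversed array. Its mean was 2.85 ± 0.66 (SD, 2 arrays), or 7.19-fold, above that of 98.6% of genes. On the 24 h arrays the gene lay at 0.02 and -0.08. All its 4 h spots were therefore above all its 24 h spots, which ran from -0.21 to 0.26.

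Mcm4, which with Mcm6 and Mcm7 can form a subcomplex that unwinds DNA in the test tube, had spots at 3.05 and 2.70 on the first 4 h array and at 2.91 and 2.15 on the reversed one. The mean was 2.70 ± 0.24, or 6.52-fold. The 24 h arrays gave 0.51 and 0.10, the only helicase gene above 0 on both. With centring on the median spot, its 2 orientations at 4 h were closer than those of Mcm2, Mcm5 or Mcm6. With centring on abundant transcripts they lay at 0.55 and 1.12, further apart than those of Mcm2 at 0.99 and 0.96.

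Mcm5, which together with Mcm2 forms the gate through which DNA enters the ring, lay at 2.50 and 2.46 on the spots of the first 4 h array and at 2.44 and 1.62 on the reversed array. Its mean was 2.25 ± 0.32, or 4.77-fold. At 24 h the arrays disagreed, with 0.77 on the first and -0.41 on the reversed array, and the mean was 0.18 ± 0.83. Its 24 h spot at 1.04 was the highest of any of the 7 genes at that time.

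Mcm6, a neighbour of Mcm2 in the ring, had spots at 3.11 and 2.65 on the first 4 h array but at 1.66 and 1.23 on the reversed array. The mean was 2.16 ± 1.02, or 4.48-fold. With centring on the median spot its 2 arrays differed more than those of Mcm2, Mcm4 or Mcm5. With centring on abundant transcripts they lay at 0.56 and 0.03, no further apart than those of Mcm4 at 0.55 and 1.12. At 24 h its arrays lay at 0.28 and -0.29, again higher with LPS in Cy5. Over these 4 genes, all 16 spot values at 4 h lay between 1.23 and 4.12, and all at 24 h between -0.45 and 1.04. The genes were picked with both times known and spots are not replicates, so nothing is read from this gap. With centring on abundant transcripts, the arrays of Mcm5 lay at 0.16 and 0.61 at 4 h and at 0.54 and -0.56 at 24 h.

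Mcm3, which sits beside Mcm5 in the ring, was close to a ratio of 1 on every spot. Its 4 h spots were 0.19 and 0.26 on the first array and 0.10 and 0.31 on the reversed array, with a mean of 0.22 ± 0.02. At 24 h the gene lay at -0.02 on each array. With centring on the median spot, the 2 orientations differed by 0.02 at 4 h. With centring on abundant transcripts they lay at -2.10 and -1.21. Without intensities, a dim spot cannot be told from a transcript at equal level in both RNAs.

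Mcm7, a core subunit of the ring, gave opposite signs in the 2 orientations at 4 h. Its spots were 1.27 and 1.16 with LPS in Cy5 and -0.49 and -1.30 with LPS in Cy3. The mean of 0.16 ± 1.49 therefore holds no direction, and each array lay 1.06 on the log2 scale from their mean, which is more than the mean itself. With 1 array per orientation, dye and array error cannot be told apart. At 24 h it lay at 0.33 and -0.07. The same distance at 4 h, counted as the unreversed array minus the mean, was 0.72 for Mcm6, 0.47 for Mcm2, 0.23 for Mcm5 and 0.17 for Mcm4. It was 0.01 for Mcm3 and -0.01 for Cdc6. These distances hold for centring on the median spot, and their order changes with centring on abundant transcripts.

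Cdc6, the ATPase that helps to load the helicase, was lower at 4 h on all 4 spot values. These were -1.36 and -1.39 on the first array and -1.50 and -1.20 on the reversed array, with a mean of -1.36 ± 0.02. With centring on the median spot both orientations thus gave nearly the same ratio, and 4.57% of genes had a lower mean. With centring on abundant transcripts the 2 arrays lay at -3.70 and -2.76. At 24 h the arrays split by orientation, at -0.52 and 0.50, and the mean was -0.01 ± 0.73. Its 24 h sign therefore cannot be given.

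Ordered by the mean ratio at 4 h, the genes ran Mcm2, Mcm4, Mcm5, Mcm6, Mcm3, Mcm7 and Cdc6. The arrays of Mcm2 and Mcm4 overlapped, as did those of Mcm5 and Mcm6 and those of Mcm3 and Mcm7. For neighbours without overlap of arrays, the means differed by 0.45 (Mcm4 and Mcm5), 1.95 (Mcm6 and Mcm3) and 1.52 (Mcm7 and Cdc6). The nearest arrays of Mcm4 and Mcm5 lay at 2.53 and 2.48. Single spots overlapped for Mcm4 and Mcm5 and for Mcm7 and Cdc6. With centring on abundant transcripts the arrays of Mcm4, at 0.55 and 1.12, overlapped those of Mcm5, at 0.16 and 0.61. At 24 h every neighbouring pair in the order overlapped. The differences from 4 h to 24 h were -2.88 for Mcm2, -2.40 for Mcm4, -2.17 for Mcm6 and -2.07 for Mcm5, and 1.35 for Cdc6. These 5 genes met the rule for a difference between times, a change of at least 1 with no overlap of arrays, which 9.99% of genes met downward and 8.23% upward. Mcm3 changed by -0.24 and Mcm7 by -0.03, short of it. Without the reversed 24 h array Cdc6 changed by 0.84, also short of a change of 1. As the genes were chosen with both times known, these shares are given beside the counts and nothing is read from them.

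**Figure D2:**
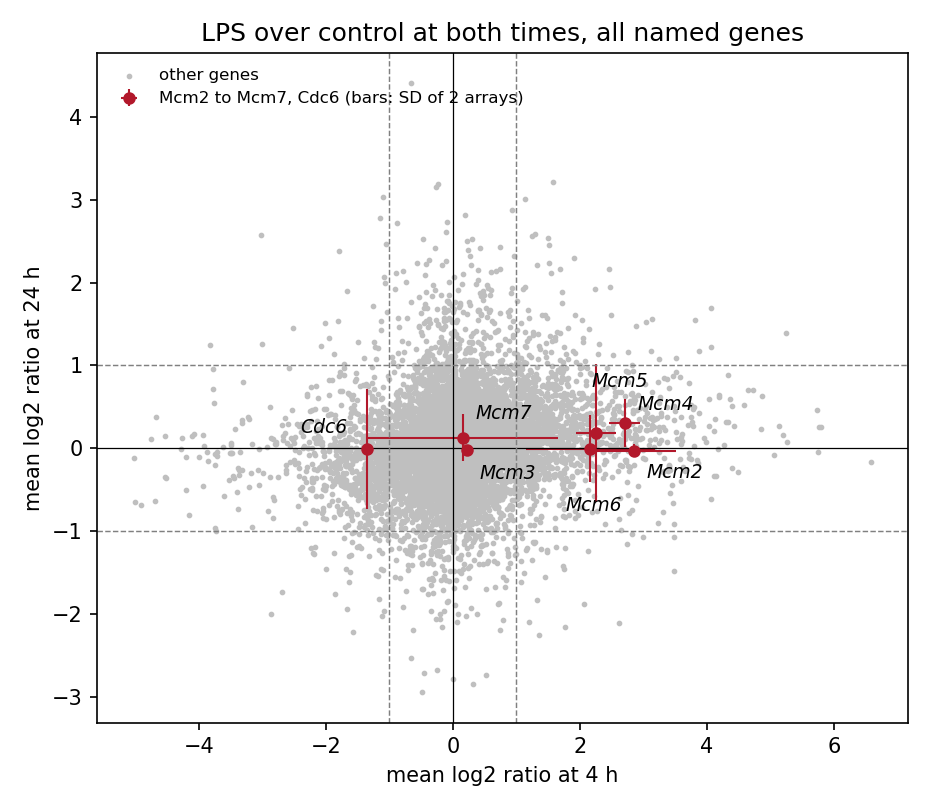
Mean log2 ratio at 4 h (horizontal) against 24 h (vertical) for all named genes (grey) and the 7 genes (red, bars are the SD of 2 arrays); dashed lines mark 2-fold. Mcm2, Mcm4, Mcm5 and Mcm6 lie to the right at 2.16 to 2.85, Cdc6 to the left at -1.36, and all 7 between -0.03 and 0.31 at 24 h.

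The agreement of adjacent spots gives part of the measurement error within an array. Over 12092 oligonucleotides with 2 adjacent spots, the median difference at 4 h was 0.19 (LPS in Cy5) and 0.27 (LPS in Cy3), and at 24 h 0.25 and 0.26. For the 7 genes the medians were, in the same order, 0.11, 0.43, 0.38 and 0.10. The largest, 1.62, was that of Mcm2 on the first 4 h array, where a single spot at 4.12 raises the mean; the lower spot, 2.50, was still above the 2-fold line. No spot of the 7 genes was at a ratio of exactly 1.

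The spots of Mcm4, Mcm5 and Mcm7 follow each other in number, and so do those of Mcm2 and Mcm6, so the numbers around them were examined. Among the 40 spots numbered next to Mcm4, Mcm5 and Mcm7, the medians on the 4 h arrays were 0.00 and 0.12, and 7.5% were at least 2-fold higher on both. Next to Mcm2 and Mcm6 the medians were 0.01 and -0.16, and 0 of 40 were. Over all spots the share was 5.71%. The spots around Cdc6 had medians of 0.06 and -0.02, with 10% at least 2-fold lower on both, against 3.55% of all spots. Of the spots next to Mcm2 and Mcm6, 7.5% were at least 2-fold lower on both. Next to Mcm3 the medians were -0.14 and -0.07, with 2.5% at least 2-fold higher and 10% lower on both. The medians beside the helicase genes thus lay between -0.16 and 0.12; how numbers map to places on the slide is not given in the sources used here.

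How large the 4 h ratios are depends on what each array is centred on. A list of 43 measured abundant transcripts outside translation, such as actins, tubulins and glycolytic enzymes, had medians of 2.32 and 1.42 on the 4 h arrays, with 26 genes past the 2-fold rule upward and 1 downward. Its medians at 24 h were 0.23 and 0.16. Centring on this list lowers every 4 h mean by 1.87 and every 24 h mean by 0.19. Mcm2, Mcm4, Mcm5 and Mcm6 then lay at 0.98, 0.84, 0.39 and 0.29 at 4 h, still above 0 on both arrays but with none past the 2-fold rule. Mcm3 turned to -1.65 and Mcm7 to -1.71, both lower by the rule, and Cdc6 was at -3.23. The order of the 7 means is the same under both centrings, since 1 constant is taken from all genes of an array. The 4 h ratios thus stand relative to the median spot, and the part of this shift in the helicase ratios was not tested. In bulk RNA, more cells of a kind and more transcript per cell cannot be told apart.

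**Figure D3:**
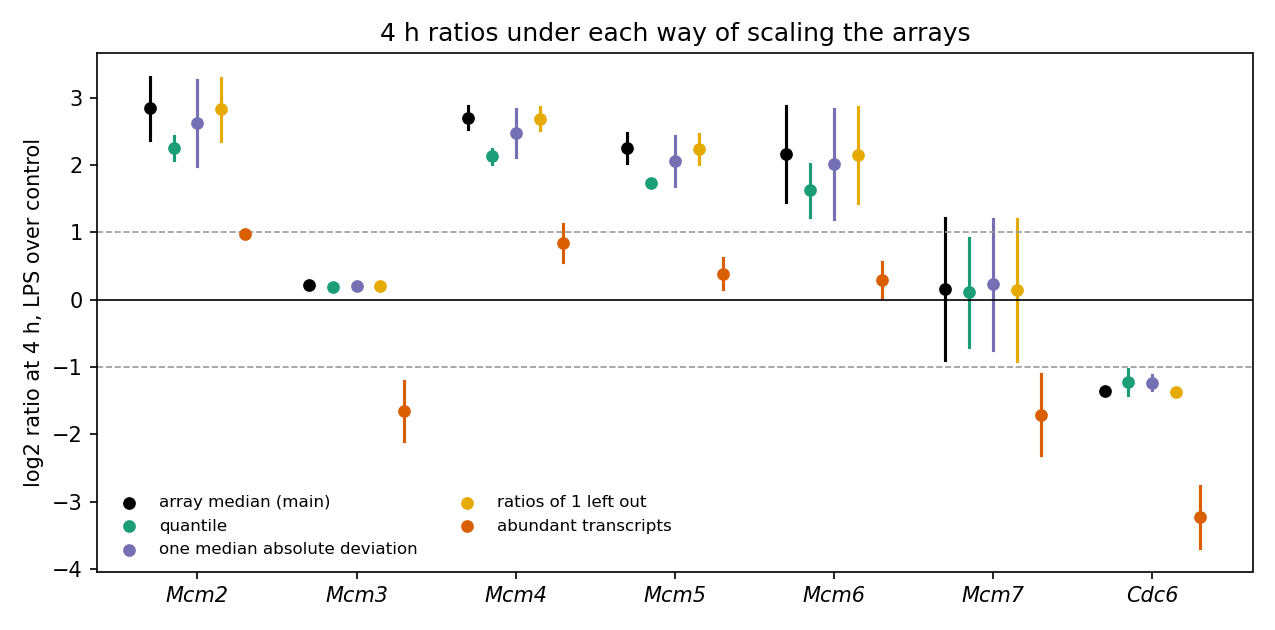
Mean log2 ratio at 4 h for each gene (points) with its 2 arrays (line ends) under 5 ways of scaling the arrays; dashed lines mark 2-fold. Under quantile normalization Mcm2 lies at 2.25 and Mcm6 at 1.63, and only centring on abundant transcripts (orange) takes these genes below 2-fold and Mcm3 and Mcm7 below 0.

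Other genes of DNA replication and the cell cycle were followed in 6 lists. Of 118 measured genes outside the 7, 26 were higher by the 2-fold rule at 4 h and 5 lower, 22% and 4.24%, where all genes gave 8.74% and 5.77%. The median was 0.33, against 0.00 for all genes. At 24 h, 2 were higher and 1 lower, with a median of 0.08 against 0.02. Of all genes 1.68% were higher and 0.799% lower at 24 h, so these 24 h counts are near the shares over all genes. With centring on the abundant transcripts the 4 h counts became 5 higher and 78 lower. The 4 h medians of the 6 lists then all lay below 0, between -1.67 and -1.32. Across both times, limma on the 2 pair means called 0 of 11138 genes at an adjusted p of 0.05 by Benjamini-Hochberg, and 0 of the 118. This fit takes the 2 times as replicates, with 1 residual degree of freedom. A response at 1 time only counts as spread in it, so it could hardly call one, and nothing is read from the 0. At an unadjusted p under 0.05 it gave 513 genes, 5 of them in the lists, and a limma fit that treats the 4 arrays as separate samples also called 0 after adjustment.

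In the list for origin recognition and licensing, which also holds genes with other roles, 1 of 12 was higher at 4 h and 1 lower. All genes gave 8.74% and 5.77%. The list's median was 0.26, and 0.29 and 0.14 on the arrays taken alone; with centring on abundant transcripts it was -1.61. Cdc7, the kinase that activates the loaded ring, was higher at 1.63 and 0.86 on the arrays, a mean of 1.24 ± 0.54. Its partner Dbf4 lay at 0.16. Mcm3ap, which encodes the MCM3-associated protein GANP, was lower at -1.45 ± 0.51. The origin recognition genes Orc1 to Orc6 lay between -0.21 (Orc5) and 1.01 (Orc1), and none was past the rule; Orc1 had arrays at 1.69 and 0.33. The licensing inhibitor geminin, Gmnn, lay at 0.20, and Mcm9, a relative of the ring subunits with a role in repair, at -0.60. At 24 h, Mcm10, which helps to activate the helicase, was the only gene of the list past the rule, at 1.06 ± 0.46. Its 2 oligonucleotides gave 0.38 and 1.75.

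The partners of the ring at the moving fork gave unequal ratios. Cdc45, which joins the active helicase, lay at 1.38 and 1.40 on the 4 h arrays and at -1.77 and -0.67 on the 24 h arrays, higher at 4 h and lower at 24 h by the rule. It was the only gene of the 118 that was lower at 24 h, where 0.799% of all genes were, so this count is near the share over all genes. Among the 4 GINS subunits, Gins1 was higher at 4 h at 3.84 ± 0.95, with arrays at 3.17 and 4.52. Gins2 lay at -0.03, Gins3 at 0.67 and Gins4 at 0.16, short of the rule. At 24 h the GINS genes were between -0.45 and -0.05.

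In the whole replication fork list 8 of 36 genes were higher at 4 h and 1 lower, where all genes gave 8.74% and 5.77%. The list's median was 0.35 (0.31 and 0.43 on the arrays alone). Pole4, a small subunit of polymerase epsilon, lay at 3.06 ± 1.21, and Rpa3, a subunit of the single-strand binding protein RPA, at 2.48 ± 0.24. The primase gene Prim1 lay at 1.71 ± 1.05. Rpa2, another subunit of RPA, was the 1 lower gene at -1.0 ± 0.13. The sliding clamp gene Pcna was not past the rule at -0.82 ± 0.94, with arrays at -0.16 and -1.49. At 24 h the list median was -0.04 and no gene was higher.

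Among the 6 lists, enzymes that supply nucleotides for S phase had the highest share at 4 h, with 6 of 15 higher, 0 lower and a median of 0.55. The median was 0.61 for the unreversed array alone and 1.08 for its reversal. Of all genes 8.74% were higher and 5.77% lower at 4 h. Dut, which clears dUTP, lay at 3.79 ± 1.16, the nucleoside diphosphate kinase genes Nme2 and Nme1 at 3.51 ± 1.48 and 2.64 ± 1.31, and Cad, which starts pyrimidine synthesis, at 2.50 on each array. Nme1 and Nme2 are close in sequence, and a probe may not separate them. The ribonucleotide reductase genes Rrm1 and Rrm2 lay at 2.0 ± 0.77 and 0.78 ± 0.17, of which only Rrm1 was past the rule. At 24 h Nme2 was the only one past it, at 1.09 ± 0.35.

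The E2F and retinoblastoma list had 2 of 11 genes higher at 4 h and 0 lower, against 8.74% and 5.77% of all genes. Its median was 0.36. On the arrays alone the median was 0.08 with LPS in Cy5 and 0.22 with LPS in Cy3. The higher genes were E2f6, a repressing member of the family, at 1.84 ± 0.59, and the tumour suppressor Rb1 at 1.31 ± 0.13. The activators E2f1 and E2f3, known regulators of the MCM genes and Cdc6, lay at 0.36 and 0.12. At 24 h 0 of the 11 were past the rule in either direction. The 24 h median was -0.14 over the means but 0.19 and 0.03 on the arrays alone, so it has no settled sign.

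Among G1 and S phase cyclins, kinases and inhibitors, 4 of 22 were higher at 4 h and 2 lower. Over all genes the shares at 4 h were 8.74% and 5.77%. The list's median was 0.19 (0.13 and 0.21 on the arrays alone). Cdk4, a kinase of G1 phase, lay at 3.48 ± 0.14, Cks2, a small partner of cyclin-dependent kinases, at 2.28 ± 0.09, and Skp2, which marks the inhibitor p27 for destruction, at 2.03 ± 0.22. Ccna2, the cyclin of S phase and G2, lay at 1.17 ± 0.33. Cyclin D3, Ccnd3, was lower at -1.41 ± 0.58, and Cdkn1b, the gene of p27, at -1.11 ± 0.18. The cyclin E genes Ccne1 and Ccne2 lay at 0.17 and 0.03. In the list for G2 and mitosis 5 of 22 were higher and 1, Foxm1, lower, with a median of 0.46 (0.62 and 0.26 on the arrays alone). Cdk1 lay at 2.13 ± 1.42, Ccnb2 at 2.10 ± 1.5, Cenpa at 1.48, Ube2c at 1.61 ± 0.49 and Bub1b at 1.51 ± 0.80. At 24 h 0 genes of these 2 lists were past the rule.

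**Figure D4:**
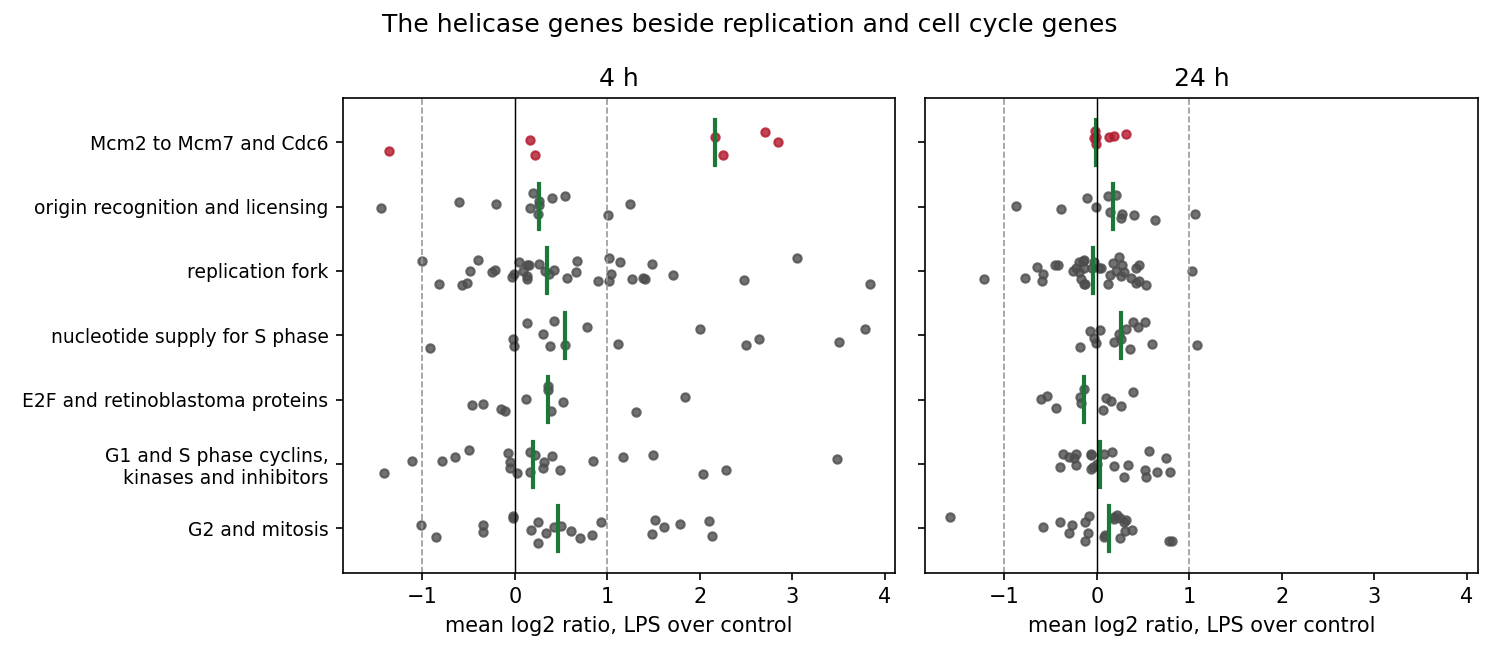
Mean log2 ratio of LPS over control at 4 h (left) and 24 h (right) for the 7 genes (red) and the genes of 6 lists (grey); green bars are medians and dashed lines mark 2-fold. At 4 h the list medians lie between 0.19 and 0.55 with single genes up to 3.84, and at 24 h they lie between -0.14 and 0.27; the lowest, that of the E2F list, was above 0 on each 24 h array alone.

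The genes whose values over the 4 arrays were nearest to the mean of Mcm2 to Mcm7, by Euclidean distance, were Zfp524, Oat, Ahcy, Gyg and Vim, at distances of 0.17 to 0.30. That mean was 2.17 and 1.28 at 4 h and 0.32 and -0.13 at 24 h. It mixes 4 genes with 4 h means of 2.16 to 2.85 with Mcm3 at 0.22 and Mcm7 at 0.16, and describes no single subunit. The 5 nearest genes had 4 h means of 1.63 to 1.90, below those 4 and above the other 2. Vim, the intermediate filament gene, is also among the abundant transcripts, and lay at 2.29 and 1.5 at 4 h. None of the 5 belongs to the 6 lists. Nearest to Cdc6 were Lmnb1, Alpl, Siae, Tnfsf13 and Mocos, at 0.31 to 0.37, with 4 h means of -1.57 to -1.18. Lmnb1, the gene of lamin B1, lay at -1.31 and -1.24 at 4 h and at -0.27 and 0.39 at 24 h. With 4 arrays, likeness of this kind is a description only.

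Markers of cell types were read as ratios, which say nothing of whether a gene is present. Of 10 measured endothelial markers, 0 were higher at 4 h and 1, Cdh5, lower at -3.47 ± 2.12, where its 2 oligonucleotides gave 0.27 and -7.21. Pecam1 lay at -0.20 and Kdr at 0.25, and the list median was -0.04. Of 7 mural and fibroblast markers 4 were higher and 1 lower at 4 h, where all genes gave 8.74% higher and 5.77% lower. Their median over the 4 h means was 1.20, less than the 1.87 that centring on abundant transcripts takes from every 4 h mean. Higher were Pdgfra, Acta2, Col1a1 and Dcn, and lower was Lum. That list's median was 1.0 and 1.08 on the 4 h arrays and its summed log2 ratio 3.94 to 4.86, against 1.28 to 1.30 at 24 h. None of 6 leukocyte markers and 0 of 6 epithelial markers were higher at 4 h, and 1 epithelial marker, Cldn3, was lower. The part of these shifts in the helicase ratios was not tested.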

How the data were processed

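The deposited table gives log2 ratios of the 2 dyes for 32448 spots on each of 4 arrays; dyes and treatments are per the labels. The unit was read from the values: raised as powers of 2, their sizes fall on steps of 0.01 (no array under 99.96%). The authors' scanner, background correction and normalization were not given in the sources used here. Each deposited column had a median of 0. Spots were named from the platform annotation: 24344 had 1 symbol, 98 several and 8006 none; only the first kind was used. The Entrez identifiers of 98.9% were found in RefSeq's gene table (GRCm38.p6).

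Arrays were centred on their median, reversed arrays turned in sign, spots of a gene averaged and the arrays of a time averaged. The 2-fold rule needs a mean of at least 1 (log2) and 1.5-fold on each array. The shared response was fitted with limma 3.58.1 in R 4.3.3 (lmFit, eBayes, 1 residual degree of freedom, Benjamini-Hochberg). Both were tried on simulated data, limma only at an unadjusted p under 0.05. The 7 genes and all lists were chosen with earlier results of these data known. Named are all 7 genes, up to 4 genes of each list with the largest mean past the rule, the 5 genes nearest to each profile, and Pecam1, Cdh5 and Kdr. Orc1 to Orc6, Dbf4, Gmnn, Mcm9, Cdc45, Gins2 to Gins4, Pcna, Rpa2, Rrm1, Rrm2, E2f1, E2f3, Cdkn1b, Ccne1, Ccne2, Ccna2, Cenpa, Foxm1, Pdgfra, Acta2, Col1a1, Dcn, Lum and Cldn3 were named after their values had been seen. The alternatives comprised other centrings, scalings, thresholds and spot summaries, ratios of 1 as not measured, and leaving out each array.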

Additional observations from a re-analysis of the deposited data

Results flagged for a closer look

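Among the genes named here, 10 had both 4 h arrays on one side of 0 and both 24 h arrays on the other. The difference was not tested, and 1646 of all 11138 genes (14.8%) show the same. From 4 h to 24 h, Mcm3 differed by -0.24, with all arrays within 0.23 of 0. Among the helicase's partners at the fork, Gins1 differed by -3.99, Cdc45 by -2.61 and the RPA gene Rpa2 by 1.43. Cks2 differed by -2.51 and the ubiquitin-conjugating enzyme gene Ube2c by -1.91. Orc4, of the origin recognition complex, differed by -1.41, with its 2 oligonucleotides at 0.09 and -1.84 at 24 h. Smaller differences were those of E2f3, -0.66, Mcm9, 0.86, and the endothelial receptor gene Kdr, -0.31.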

How the results depend on the processing

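At 4 h, Cdc6 was past the 2-fold rule downward under every alternative but the higher threshold, and Mcm2, Mcm4, Mcm5 and Mcm6 lay above 0 under every alternative. The count of Mcm2 to Mcm7 past the rule upward at 4 h was 4 or 5 under every alternative but centring on abundant transcripts. That centring gave 0 higher and 2 lower, a median of Mcm2 to Mcm7 of 0.34 in place of 2.21, and, between the times, 1 of these genes lower and 2 higher at 24 h. It also gave 110 genes higher and 9075 lower at 4 h, 108 and 204 at 24 h, 8486 higher and 126 lower at 24 h than at 4 h, and list genes at 5 and 78 (4 h) and 0 and 2 (24 h).

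At 24 h, 144 genes were lower with arrays scaled to one median absolute deviation. Quantile normalization gave 411 higher and 148 lower, with 6 list genes higher; both scalings gave 3 list genes lower at 4 h. With the median over spots 1 list gene was higher at 24 h. A lower threshold (a mean of 1.5-fold, with a looser demand on each array) gave 1592 genes higher and 1225 lower at 4 h, 683 and 442 at 24 h, and list genes 9 lower at 4 h and 9 higher and 3 lower at 24 h. A higher threshold (mean log2 ratio 2, each array 1) gave 353 and 150 at 4 h, 26 and 4 at 24 h, and list genes 12 and 0 at 4 h and 0 and 0 at 24 h. The mean alone gave 388 and 280 at 24 h, with 2 list genes lower.

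Leaving out 1 array gave 1376 to 1476 genes higher and 996 to 1007 lower at 4 h, and 502 to 771 higher and 310 to 818 lower at 24 h. List genes at 24 h were then 1 to 5 higher and 2 to 4 lower. Between the times, 923 to 1576 genes were higher and 1405 to 1582 lower at 24 h, with 4 to 5 of Mcm2 to Mcm7 lower and 0 to 1 higher. Without the unreversed 4 h array Mcm7 lay at -0.89 at 4 h and without the reversed array at 1.22, past the rule. The limma fit called 0 genes under every alternative. No analysis paired by culture was possible because the labels give no replicate numbers. The limma fit with a dye term, which sets arrays of like orientation together, also called 0 genes. A response at 1 time only counts as spread in all these fits, so nothing is read from the 0. With 1 array of a time left out, the rule no longer asks 2 arrays to agree, so those counts come from a looser rule. How much of their rise is due to this, and the cause of the other changes, was not tested. Depth limits cannot be given without intensities.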
